A study of Mus musculus with 36 samples.

Results

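The 4 EIF2α kinases and 5 genes that act downstream of them were followed in the blood of irradiated mice. The kinases were Eif2ak1, Eif2ak2, Eif2ak3, and Eif2ak4, and the downstream genes were Atf4, Ddit3, Ppp1r15a, Asns, and Trib3. They were found by gene name in the array annotation, and all probes of a gene were taken. These 9 genes had 10 probes among the 39429 non-control probes of the array, since Atf4 had 2 probes and each other gene had 1. All 10 probes were among the 21484 probes that passed the background filter, which kept probes with uniform spots and significant signal in more than 75% of the 36 mice. No measured change entered the rule that picked the probes, but the members were chosen with earlier results of these data known.

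Blood was drawn from male C57BL/6J mice 7 days after exposure, which took place at an age of 8 to 10 weeks, and 1 single-colour Agilent array was run per mouse. There were 6 groups of 6 mice. Controls were sham-irradiated, and a second group received 3 Gy of x-rays. The 5, 15, and 25% mixed field groups received x-rays and neutrons together at a total of 3 Gy, with a neutron dose of 0.15, 0.45, or 0.75 Gy. The 83% neutron group received 0.75 Gy of neutrons and no x-rays, the remaining percentage being photons of the neutron source, and in the sample titles it is called 100%. The 83% group therefore matched the 25% mixed field in neutron dose, and it differed from all the other exposed groups in total dose.

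The integrated stress response is set off by phosphorylation of the α subunit of the initiation factor EIF2, which lowers protein synthesis in general while allowing the mRNA of the transcription factor ATF4 to be translated. Each kinase answers to a different stress: EIF2AK1 (HRI) senses heme deficiency and is the main EIF2α kinase of red cell precursors, EIF2AK2 (PKR) senses double-stranded RNA and is encoded by an interferon-stimulated gene, EIF2AK3 (PERK) senses unfolded protein in the endoplasmic reticulum, and EIF2AK4 (GCN2) senses uncharged tRNA. ATF4 drives genes of amino acid supply such as Asns, and also Ddit3 (CHOP) and Trib3. Ppp1r15a (GADD34) directs a phosphatase to EIF2α and so ends the response. The arrays measured mRNA, and neither the phosphorylation of EIF2α nor any protein was measured.

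An array had 15569 to 21294 probes with signal well above background. Controls had 19492 to 20724 (median 19920), x-ray arrays 16548 to 19307 (18059), and 83% arrays 16444 to 18989 (16564). The 5, 15, and 25% fields had medians of 18799, 18213, and 19849. Before centring, the median log2 signal of an array was 4.33 to 4.70 in the controls, 2.94 to 4.23 with x-rays, and 3.22 to 3.93 at 83%. The 25% and 83% arrays were scanned together in a session that held no control or x-ray array, so that for these 2 exposures scan session and radiation cannot be told apart when they are set against controls or x-rays. Of the 5% and 15% arrays, 1 each was scanned in a session with a control array, and controls and x-rays shared 2 sessions. Cell type markers moved with exposure: the mean of 7 red cell markers lay between 6.76 and 7.52 in the controls and between 7.87 and 9.85 in the exposed groups, and the mean of 5 B cell markers lay between 7.70 and 8.51 in the controls, between 2.92 and 5.98 in the 4 groups exposed to 3 Gy, and between 6.59 and 7.16 at 83%. In all exposures some 4 to 7 of the 7 red cell markers were called higher, and 4 to 5 of the 5 B cell markers lower. Among all tested probes, 8.11 to 13.9% were called higher and 13.2 to 19.7% lower. All of these red cell and B cell markers passed the background filter. In whole blood, fewer cells of a type and less RNA per cell cannot be told apart.

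Levels are given as log2 signal relative to the median probe of the same array, which can be compared between arrays for 1 probe and not between probes. A change was called when limma, fitted on the 12 arrays of the comparison, gave p below 0.001 that also stayed below 0.05 after Benjamini-Hochberg adjustment over all probes tested. With 1 array per mouse, these p-values rest on the spread between mice, which cannot be told apart from that between arrays. Groups shared few slides, so that slide and exposure cannot be fully told apart either. Exposed and control mice were compared to ask which stress response genes differed 7 days after each exposure.

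Among the kinases, Eif2ak1 was higher than in the controls after every exposure, Eif2ak3 and Eif2ak4 were lower after every exposure, and Eif2ak2 was called in none, except that centring the arrays on spike-in probes instead placed Eif2ak1 at 83% at -0.34, without a call, and called Eif2ak2 lower at 83% (-1.79). That centring moved every difference from the controls by a fixed amount, -0.98 for x-rays, -1.30, -1.22, and -0.80 for the 5, 15, and 25% fields, and -1.82 for 83% neutrons. The median of all probes at 83% then stood at -2.01, and relative to that shift Eif2ak1 stood at 1.67 and Eif2ak2 at 0.22. Because the shift was fixed, such values only restate the median-centred differences against the median change of all tested probes (-0.19). Thus 3 of the 4 kinase probes were called after each exposure, 1 higher and 2 lower. For comparison, x-rays gave calls for 27.6% of all tested probes, the 5% field for 21.3%, the 15% field for 26.5%, the 25% field for 23%, and 83% neutrons for 33.6%. Probes called lower were 16, 13.2, 15.3, 13.3, and 19.7% of those tested, and probes called higher 11.6, 8.11, 11.1, 9.69, and 13.9%. The groups of all 3 called kinases did not overlap with the controls after any exposure. For all tested probes this share was 28.7% for x-rays, 19.6% for 5%, 24.8% for 15%, 25.1% for 25%, and 32.4% for 83%.

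**Figure D1:**
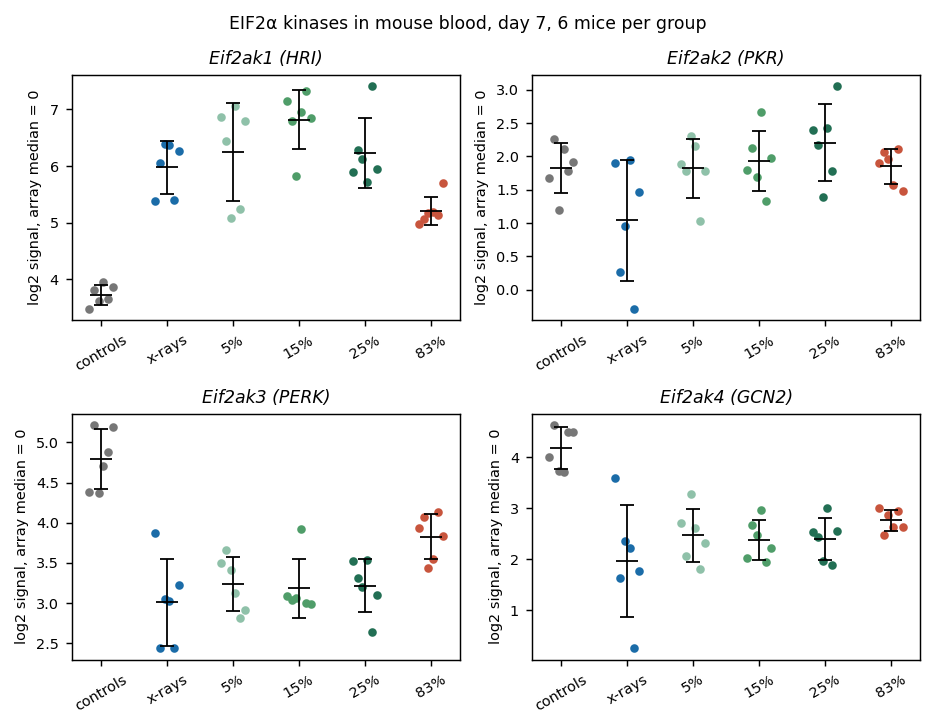
Level of each EIF2α kinase in every mouse (log2 signal, array median at 0), by group on the horizontal axis. Points are mice and black bars give the mean and SD of 6 mice. Eif2ak1 rises from about 3.73 in the controls (mean) to between 5.21 and 6.82 in the exposed groups, Eif2ak3 and Eif2ak4 lie below the controls in all exposed mice, and Eif2ak2 overlaps throughout. With spike-in centring the Eif2ak1 mean at 83% falls below that of the controls.

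Eif2ak1 had its lowest levels in the controls, where it ranged from 3.47 to 3.95 with a median of 3.73. X-ray mice lay between 5.38 and 6.39 (median 6.16), 5% mice between 5.09 and 7.07 (6.62), 15% mice between 5.83 and 7.32 (6.91), 25% mice between 5.72 and 7.42 (6.04), and 83% mice between 4.98 and 5.69 (5.15). Every exposed mouse lay above every control mouse. The difference from the controls was 2.25 ± 0.22 (log2, SE, n = 6 and 6) after x-rays, a 4.76-fold increase (adjusted p = 5.44e-06). It was 5.75-fold at 5% (8.67e-05), 8.54-fold at 15% (8.25e-07), 5.68-fold at 25% (9.09e-06), and 2.79-fold at 83% (2.74e-06). By mean level the order was 15%, 5%, 25%, x-rays, 83%, and controls, and the ranges of the 4 groups exposed to 3 Gy overlapped.

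The level of Eif2ak1 in 83% neutron mice was lower than in the 25% mixed field mice, which had received the same neutron dose, by 1.03 (95% interval -1.60 to -0.46, adjusted p = 0.0143). The 2 groups did not overlap, but the unadjusted p of 0.00174 missed the threshold of the call. Replicate 5 of the 25% group stood apart with the highest level, and it also had the fewest probes well above background of its group (15782). Without this array, the difference was -0.79 and was called (adjusted p = 0.00375). The difference was also called with spike-in centring, normexp background correction, array weights, and a stricter probe filter. On the slide that held 2 mice of each group it was -1.66. Against x-rays, Eif2ak1 at 83% differed by -0.77 (-1.26 to -0.28, adjusted p = 0.024), and 5 of the 6 mice lay below every x-ray mouse. This difference was not called with median centring, but it was with spike-in centring (-1.62, adjusted p = 0.000719) and with array weights (-1.03, 0.000716). None of the mixed fields differed from x-rays in Eif2ak1 by a called amount, and the intervals of the difference were -0.55 to 1.09 at 5%, 0.20 to 1.48 at 15%, and -0.42 to 0.93 at 25%. In the scan session that held 1 array of each, the 5% and 15% mice lay below the x-ray mouse (-1.02 and -0.43).

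Eif2ak3 ranged from 4.37 to 5.22 in the controls, with a median of 4.80. X-ray mice had levels of 2.44 to 3.87 (median 3.04), 5% mice of 2.82 to 3.67 (3.27), 15% mice of 2.99 to 3.93 (3.05), 25% mice of 2.64 to 3.53 (3.26), and 83% mice of 3.43 to 4.13 (3.88). No exposed mouse reached the lowest control. The decrease was 3.44-fold after x-rays (log2 difference -1.78 ± 0.26, adjusted p = 0.000145), 2.93-fold at 5% (0.000176), 3.05-fold at 15% (0.000102), 2.98-fold at 25% (9.06e-05), and 1.95-fold at 83% (0.000821). With median centring the 83% group lay closest to the controls, 0.82 above the x-ray group (0.28 to 1.35, adjusted p = 0.0284) and 0.61 above the 25% group (0.18 to 1.03, adjusted p = 0.0421), neither of which was called. The difference from the 25% group was called with 3 other centrings, for example on the 75th percentile (0.74, adjusted p = 0.00621), and turned to -0.41 with spike-in centring and -0.09 with normexp, neither called. The difference from x-rays was called with centring on the probes that every array detected well (0.71, adjusted p = 0.00658). With spike-in centring it was -0.03, without a call.

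Eif2ak4 was likewise lower in every exposed mouse than in every control. Controls lay between 3.72 and 4.64 (median 4.25), x-ray mice between 0.25 and 3.59 (1.99), 5% mice between 1.82 and 3.29 (2.47), 15% mice between 1.95 and 2.97 (2.34), 25% mice between 1.88 and 3.00 (2.49), and 83% mice between 2.49 and 3.02 (2.75). The x-ray group was the most spread out, and its lowest value belonged to replicate 5, the 1 array on which the probe was not well above background. Eif2ak4 was 4.64-fold lower after x-rays (log2 difference -2.21 ± 0.43, adjusted p = 0.00101), 3.28-fold at 5% (0.000308), 3.48-fold at 15% (6.77e-05), 3.45-fold at 25% (7.63e-05), and 2.67-fold at 83% (3.80e-05). No neutron-containing exposure differed from x-rays by a called amount, and at 83% the interval of the difference was -0.09 to 1.68.

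Within the scan session shared by 5 control and 5 x-ray mice, the x-ray difference was 2.17 for Eif2ak1, -1.91 for Eif2ak3, and -2.26 for Eif2ak4, and all 3 stayed called with the session as a term of the model. With the slide as a term, Eif2ak1 stayed called and Eif2ak3 and Eif2ak4 did not (adjusted p = 0.0197 and 0.0494). At 5 and 15% the comparison within a session rests on 1 mouse of each group. Those single differences were 1.63 and 2.22 for Eif2ak1, -1.56 and -1.30 for Eif2ak3, and -1.93 and -1.27 for Eif2ak4, and of these only Eif2ak1 at 15% was called with the session as a term (adjusted p = 0.0374).

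Eif2ak2 was called neither higher nor lower after any exposure with median centring. It ranged from 1.19 to 2.26 in the controls (median 1.85), and x-ray mice had -0.29 to 1.95 (1.21). The 5% mice had 1.03 to 2.30 (1.84), the 15% mice 1.32 to 2.67 (1.89), the 25% mice 1.39 to 3.06 (2.28), and the 83% mice 1.48 to 2.12 (1.94). Every exposed group overlapped with the controls. The x-ray difference of -0.78 had an interval of -1.58 to 0.01 (adjusted p = 0.0858), and the lowest x-ray value again belonged to replicate 5, where the probe was not well above background. At 83% the difference from controls was 0.03, with an interval of -0.38 to 0.44. Against x-rays the largest difference of Eif2ak2 was that of the 25% group, 1.17 (0.29 to 2.04, adjusted p = 0.101), which was called only when all 36 arrays were fitted in 1 model (adjusted p = 0.0118) among the settings tried.

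Because Eif2ak2 is known as an interferon-stimulated gene, its promoter was searched for the interferon response element, written GAAANN followed by GAAA, on both strands, over 250 bases before and 50 bases after the start site (RefSeq, GRCm38.p6). Its match begins at position 19 counted from the start site. Among the 9 members only Ppp1r15a held another, at position -220, and both are shown, on the strand of the gene and with the match in capitals, as the pair of members with this element.
Eif2ak2, chr17:78882535-78882564, minus strand: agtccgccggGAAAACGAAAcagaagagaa
Ppp1r15a, chr7:45526469-45526498, minus strand: aaaataaaagGAAAGGGAAAtggcacggta
Of 32851 promoters of this length, 3.44% held the motif. A match is a description of the sequence and does not show a bound factor. Other interferon-stimulated genes were measured on the same arrays. Of 22 listed, 3 were called higher and 5 lower with x-rays and likewise with the 5% field, 3 and 2 with the 15% field, 3 and 3 with the 25% field, and 5 and 3 with 83% neutrons. Over these exposures, 8.11 to 13.9% of all tested probes were called higher and 13.2 to 19.7% lower. Oas3, which makes the activator of RNase L, was higher in all 5 comparisons by 1.73 to 2.62 on the log2 scale, as were Rsad2 (viperin; 1.55 to 2.13) and the ubiquitin-like modifier Isg15 (1.58 to 2.06), although with spike-in centring Oas3 and Isg15 at 83% stood at -0.09 and -0.25. Ifit2 was lower in all 5, by -1.95 to -1.11, and was well above background on 4 of 6 arrays at 15% and 5 of 6 at 25%. Stat2, named after its values had been seen, was also called lower in all 5 (-1.48 to -1.18). The median change over the list was between -0.63 and 0.05, against a median of -0.22 to -0.09 over all probes.

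Of 10 listed genes for regulators of the kinases, 0 were called higher by limma after any exposure, with 0 to 1 higher at an unadjusted p below 0.05. Called lower were 2 in each group exposed to 3 Gy and 1 at 83%. Of all tested probes, 8.11 to 13.9% were called higher and 13.2 to 19.7% lower, depending on the exposure. Daxx was lower in the 4 groups exposed to 3 Gy, by 1.85- to 2.00-fold, and Adar, which edits double-stranded RNA, was lower with x-rays (-0.93) and in the 5% (-0.90) and 25% (-0.81) fields. Impact, an inhibitor of GCN2 activation, was called lower at 15% (-1.54, adjusted p = 0.000371) and at 83% (-0.99, 0.00254), and its other 3 differences were -0.75, -1.07, and -0.88.

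As a description over all 36 arrays, the 3 genes whose levels followed each kinase most closely among 17342 genes were found by Pearson correlation. The correlation was 0.98 for Eif2ak1 with Cct7, Rbbp4, and Rbm14. It was 0.96 for Eif2ak3 with Smg1, Fam168b, and Gna13, and 0.97, 0.96, and 0.95 for Eif2ak4 with Trmt2a, 1110038F14Rik, and Tcf4. Eif2ak2 had its closest match at 0.88, with Ss18, Tipin, and Snrpa1. Taken within groups, as deviations from group means, the 12 correlations lay between 0.83 and 0.94. The arrays share their group means and the centring on the array median, so that such values describe these libraries.

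Among the downstream genes, Asns was higher after every exposure, Trib3 after every exposure at 3 Gy and not at 83%, and Ppp1r15a with x-rays, the 15% field, and 83% neutrons, the last turning to -0.29 with spike-in centring. Ddit3 was not called after any exposure, and of the 2 Atf4 probes 1 was called, at 83% only, which spike-in centring turned to -0.93. Relative to the shift of -2.01 under that centring, Ppp1r15a stood at 1.72 and this Atf4 probe at 1.09, which again only restates the median-centred differences. With the same centring Asns at 83% was no longer called (0.89), Trib3 at 83% was called lower (-1.81, or 0.20 relative to the shift), and Ddit3 was called lower at 5, 15, 25, and 83%. With median centring, 3 of the 6 downstream probes were called higher with x-rays (11.6% of all tested probes), 2 with the 5% field (8.11%), 3 with the 15% field (11.1%), 2 with the 25% field (9.69%), and 3 with 83% neutrons (13.9%). With median centring, 0 of the 6 were called lower.

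**Figure D2:**
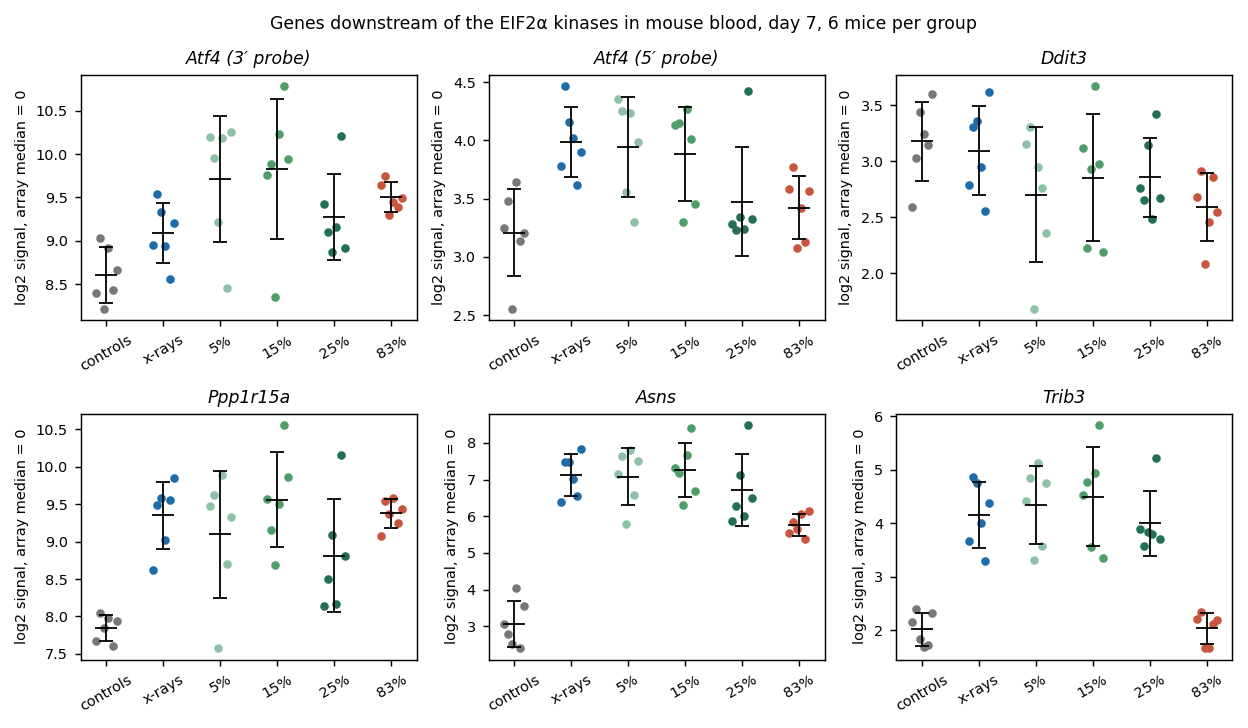
Level of the downstream genes in every mouse (log2 signal, array median at 0), by group on the horizontal axis. Points are mice, and black bars give the mean and SD of 6 mice. Asns is above the controls in all exposed mice, and Trib3 in 83% neutron mice lies in the control range (1.66 to 2.35 against 1.69 to 2.39) while the 4 other exposed groups lie above it.

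Asns, which encodes the enzyme that makes asparagine, had the largest difference of the 10 probes after each exposure with median centring. It ranged from 2.39 to 4.03 in the controls (median 2.93). X-ray mice had levels of 6.39 to 7.83 (median 7.24), 5% mice of 5.79 to 7.82 (7.32), 15% mice of 6.30 to 8.39 (7.25), 25% mice of 5.86 to 8.49 (6.39), and 83% mice of 5.37 to 6.15 (5.74). All exposed mice lay above all controls. The increase was 16.8-fold after x-rays (log2 difference 4.07 ± 0.33, adjusted p = 1.47e-06), 16.2-fold at 5% (3.95e-06), 18.4-fold at 15% (2.14e-06), 12.6-fold at 25% (2.35e-05), and 6.54-fold at 83% (2.70e-06). Within the session shared by 5 control and 5 x-ray mice the difference was 3.82.

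Trib3, a pseudokinase that restrains ATF4, ranged from 1.69 to 2.39 in the controls (median 2.00). X-ray mice lay between 3.30 and 4.87 (median 4.19), 5% mice between 3.33 and 5.13 (4.59), 15% mice between 3.35 and 5.84 (4.65), and 25% mice between 3.58 and 5.23 (3.82). The 83% mice lay between 1.66 and 2.35 (2.16). The 4 groups exposed to 3 Gy did not overlap with the controls, and no 83% mouse lay above the control range. The increase was 4.40-fold after x-rays (log2 difference 2.14 ± 0.28, adjusted p = 5.00e-05), 4.98-fold at 5% (8.74e-05), 5.56-fold at 15% (0.000132), and 3.95-fold at 25% (8.16e-05). At 83% the log2 difference was 0.01, with an interval of -0.37 to 0.40. With spike-in centring the increases were 1.16 for x-rays, 1.02 for the 5% field, and 1.26 for the 15% field, none of them called (adjusted p = 0.0101, 0.00272, and 0.00771), and 1.18 for the 25% field, which was called.

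ATF4 is known to act on Asns and Trib3 through elements that join a C/EBP site with an ATF site, and both promoters were searched for the letters TGATGNAA on both strands over the window described above. Asns held 1 match, which begins at position -23, and Trib3 held 1 on the opposite strand at position 15. No match was found in the windows of the other 7 members. The 250 bases before the Asns start site and 30 bases around the Trib3 match are shown, with the match in capitals, because Asns and Trib3 were the members called higher in all 4 groups exposed to 3 Gy among the downstream genes, and the ones called between exposures.
Asns, chr6:7693210-7693459, minus strand: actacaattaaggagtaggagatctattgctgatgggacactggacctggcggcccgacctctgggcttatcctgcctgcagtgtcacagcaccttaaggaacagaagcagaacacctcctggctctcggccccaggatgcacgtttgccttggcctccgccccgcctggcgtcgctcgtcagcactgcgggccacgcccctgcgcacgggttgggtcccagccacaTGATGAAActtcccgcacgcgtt
Trib3, chr2:152344028-152344057, minus strand: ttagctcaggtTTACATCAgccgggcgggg
The motif was present in 3.97% of the 32851 promoters. A missing match says only that these letters were not in the window.

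Ppp1r15a ranged from 7.61 to 8.05 in the controls (median 7.89). X-ray mice had 8.62 to 9.86 (median 9.52), 5% mice 7.57 to 9.89 (9.40), 15% mice 8.69 to 10.56 (9.54), 25% mice 8.14 to 10.16 (8.65), and 83% mice 9.07 to 9.59 (9.40). The 5% group overlapped with the controls through replicate 3, and the other exposed groups did not overlap with them. The increase was 2.84-fold after x-rays (log2 difference 1.51 ± 0.21, adjusted p = 0.000104), 3.27-fold at 15% (0.000207), and 2.88-fold at 83% (1.03e-06). The differences of 1.25 at 5% (adjusted p = 0.00864) and 0.96 at 25% (0.0192) missed the threshold, and without replicate 3 the 5% difference was 1.56 and was called (adjusted p = 0.000127). With spike-in centring no difference of Ppp1r15a from the controls was called, with 0.53 for x-rays (adjusted p = 0.0391), -0.05 for the 5% field, 0.49 for the 15% field (0.0597), 0.16 for the 25% field, and -0.29 for 83% neutrons.

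The 2 probes of Atf4 lie on chromosome 15 of the mm9 build, at chr15:80087902-80087961 and chr15:80086639-80086698, and are called the 3′ and the 5′ probe here by their order along the plus strand. The 3′ probe ranged from 8.21 to 9.03 in the controls (median 8.55), and 83% mice had 9.29 to 9.75 (9.47), without overlap. X-ray mice had 8.56 to 9.54 (9.08), 5% mice 8.46 to 10.26 (10.07), 15% mice 8.35 to 10.79 (9.92), and 25% mice 8.87 to 10.21 (9.13), and these groups overlapped with the controls. At 83% it was 1.86-fold higher (log2 difference 0.90 ± 0.16, adjusted p = 0.000376), and it lost the call under quantile normalization, normexp background correction, and 1 model over 36 arrays, with values of 0.60, 0.22, and 0.90. The other differences of this probe were 0.48 for x-rays, 1.10 for the 5% field, 1.22 for the 15% field, and 0.67 for the 25% field, and were not called. Without the arrays of the fourth scan session, the 5 and 15% differences were 1.27 and 1.44 and were called (adjusted p = 0.00273 and 0.000508).

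The 5′ probe of Atf4 gave another order. Controls lay between 2.55 and 3.64 (median 3.22), x-ray mice between 3.61 and 4.47 (3.96), 5% mice between 3.30 and 4.35 (4.11), 15% mice between 3.30 and 4.27 (4.07), 25% mice between 3.23 and 4.42 (3.30), and 83% mice between 3.08 and 3.77 (3.49). All exposed groups overlapped with the controls. Its largest difference was that of x-rays, 0.78 ± 0.21 (adjusted p = 0.0077), which was called under other centrings, for example 1.13 with the 75th percentile (adjusted p = 0.000845), and its difference at 83% was 0.22 with an interval of -0.19 to 0.62. With spike-in centring this probe was called lower at 83% (-1.61, adjusted p = 1.89e-05). By mean difference, the exposure furthest from the controls was the 15% field for the 3′ probe and x-rays for the 5′ probe. For the 5′ probe the 5 and 15% differences were close to that of x-rays (0.74 and 0.68), and the orders were not tested against each other. Over 36 arrays the probes correlated by 0.70.

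The probe of Ddit3, a transcription factor that promotes cell death under lasting stress, has no mapped position in the array annotation. Controls lay between 2.59 and 3.60 (median 3.19), x-ray mice between 2.55 and 3.62 (3.13), 5% mice between 1.68 and 3.31 (2.86), 15% mice between 2.19 and 3.67 (2.95), 25% mice between 2.48 and 3.42 (2.72), and 83% mice between 2.08 and 2.91 (2.61). All exposed groups overlapped with the controls. Its differences from the controls were -0.08 for x-rays, -0.47, -0.32, and -0.32 for the 5, 15, and 25% fields, and -0.58 for 83% neutrons (95% interval -0.99 to -0.17, adjusted p = 0.0182). With normexp background correction the decreases at 5% (-0.73) and 83% (-0.86) were called.

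**Figure D3:**
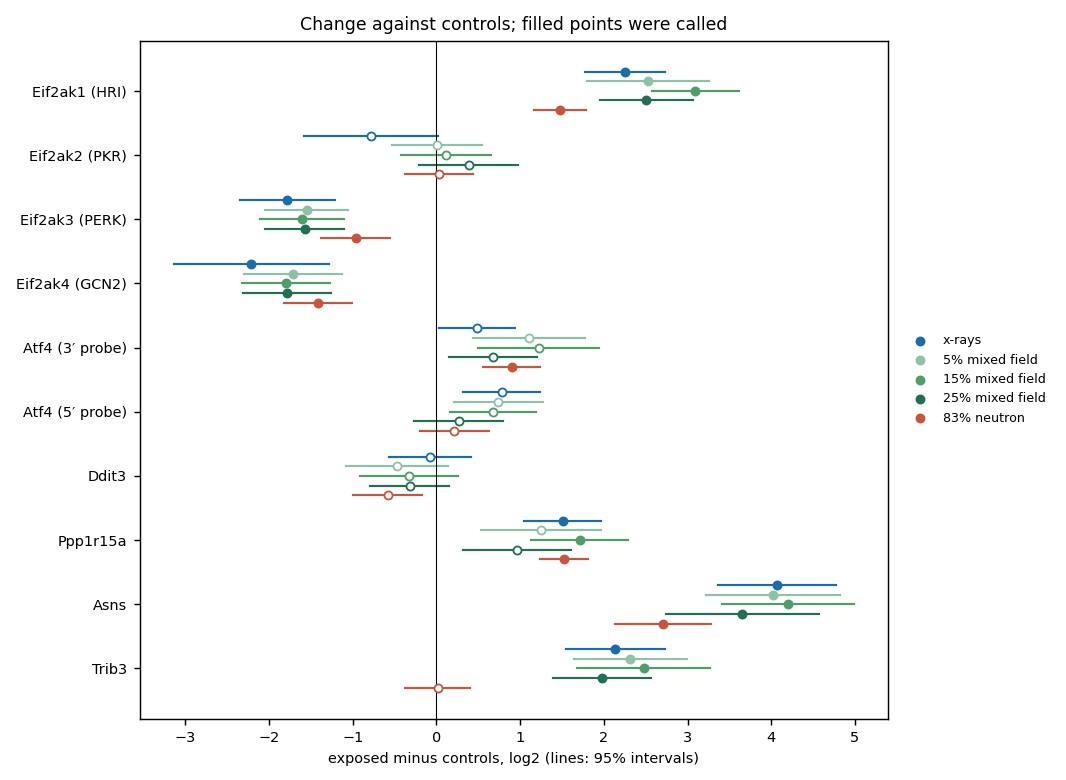
Difference of each member probe from the controls (log2, horizontal axis) for the 5 exposures, with lines for the 95% interval of the limma fit and filled points for differences that were called. Trib3 at 83% lies at 0.01 while its 4 other exposures lie between 1.98 and 2.48, and Eif2ak3 and Eif2ak4 lie below 0 for all exposures. With spike-in centring, every probe except Asns lies below 0 at 83%, and Trib3, Eif2ak2, and the 5′ probe of Atf4 stand at -1.81, -1.79, and -1.61.

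The neutron-containing exposures were compared with x-rays to ask which members differed between them. The mixed fields matched the x-ray group in total dose. The 83% group differed from it in total dose, in the lack of x-rays, and in scan session, so that a difference there cannot be assigned to the neutrons. No member probe was called at 5% (0 of 10, where 0% of all probes were called, with 4492 of them at an unadjusted p below 0.05), at 15% (0 of 10, 3.66%), or at 25% (0 of 10, 2.36%). At an unadjusted limma p below 0.05 there were 0 member probes at 5%, 2 at 15%, and 1 at 25%. With alternative fits 1 probe was called at 25%, Eif2ak2 as described above or the 5′ probe of Atf4 with array weights (-0.73, adjusted p = 0.0081). At 83%, 2 of 10 were called, both lower than after x-rays, where 11.8% of all probes were called and 6.01% were called lower. Trib3 was 4.36-fold lower (-2.12, interval -2.71 to -1.53, adjusted p = 0.000189) and Asns 2.56-fold lower (-1.36, interval -1.92 to -0.79, adjusted p = 0.00253), and in each case all 6 mice at 83% lay below all 6 x-ray mice, a separation that 12.1% of all probes showed. The call of Asns was lost in 1 model over 36 arrays (adjusted p = 0.0109), and that of Trib3 was kept under all alternatives that could be fitted. Neither scan session nor slide could be fitted as a fixed block here, since the groups shared neither. Ppp1r15a at 83% differed from x-rays by 0.02, with an interval of -0.44 to 0.48.

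The 83% and 25% exposures shared the neutron dose of 0.75 Gy and the scan session, and differed in the x-rays that the mixed field added. Of the 10 probes, 1 was called between them, where 10.2% of all probes were called and 6.74% were called lower. This was Trib3, which was 3.91-fold lower at 83% (-1.97, interval -2.54 to -1.39, adjusted p = 0.000279), without overlap between the groups. The groups of Trib3 and Eif2ak1 did not overlap, 2 of 10 probes, against 11.6% of all probes. On the shared slide, with 2 mice of each group, the Trib3 difference was -2.18. Asns differed by -0.94 (interval -1.76 to -0.13, adjusted p = 0.0893) and was called only with spike-in centring and normexp background correction (-1.97 and -1.61).

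The other known targets of ATF4 were also looked at, from a list of 30 genes without the members, of which 25 passed the filter. With x-rays 7 were called higher and 4 lower, with the 5% and the 15% field 7 and 3 each, with the 25% field 6 and 3, and with 83% neutrons 6 and 4. In the order x-rays, 5, 15, 25, and 83%, 11.6, 8.11, 11.1, 9.69, and 13.9% of all tested probes were called higher. Called lower were 16, 13.2, 15.3, 13.3, and 19.7% of them. The median change over the list lay between -0.10 and 0.32, against -0.22 to -0.09 over all probes. Calls in the list went both ways, and the share called lower was near that of all tested probes. The share called higher, 6 to 7 of 25, lay above the 8.11 to 13.9% of all tested probes, a difference that was not tested. Mthfd2, a mitochondrial folate enzyme, was higher in all 5 comparisons by 3.55 to 4.00 on the log2 scale, with 3.93 at 83%. Atf5, a related transcription factor, was higher by 2.56 at 83% and 3.36 to 4.41 in the others. The amino acid transporter Slc7a5 was higher by 1.66 to 2.56 (0.58 to 1.24 with spike-in centring), and the autophagy receptor Sqstm1 by 0.83 to 1.89, with its smallest value at 83%. Slc3a2, the partner of Slc7a5, was also called higher in all 5 (1.22 to 1.74). With spike-in centring Sqstm1 and Slc3a2 at 83% stood at -0.99 and -0.15. Phgdh, which opens serine synthesis, and the arginine transporter Slc7a1 were lower in all 5, by -1.56 to -0.82 and -1.40 to -0.83. Slc3a2, Phgdh, and Slc7a1 were named after their values had been seen.

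**Figure D4:**
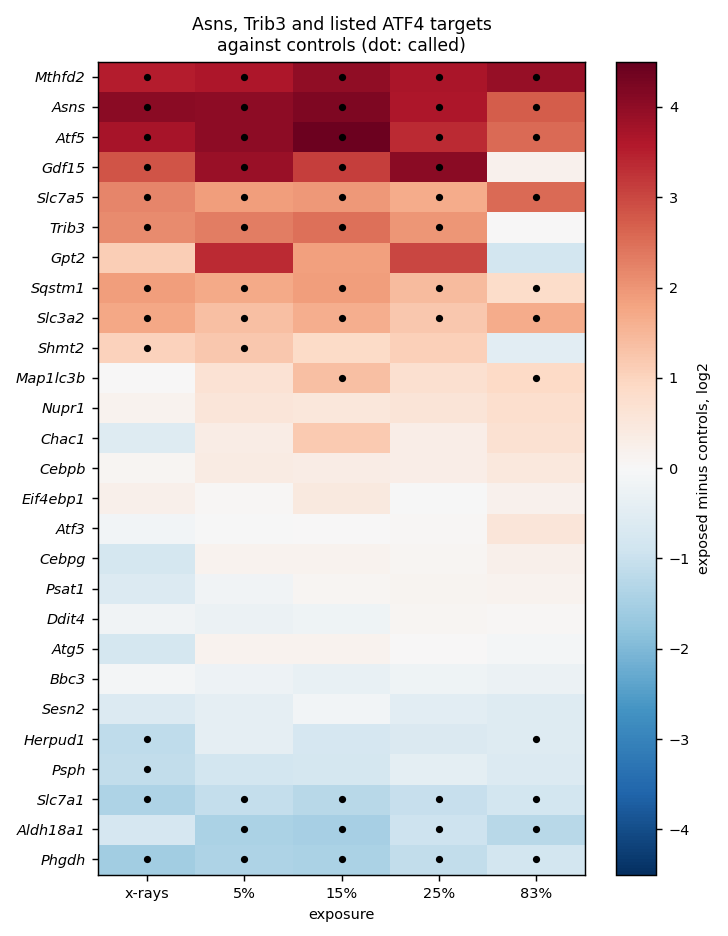
Log2 difference from the controls (colour scale) for Asns, Trib3, and the 25 listed ATF4 targets that passed the filter, by exposure on the horizontal axis, with a dot where the difference was called. Mthfd2, Asns, Atf5, Slc7a5, Sqstm1, and Slc3a2 are called higher in all 5 columns, and Trib3 and Gdf15 in all but 83%. With spike-in centring Sqstm1 and Slc3a2 fall below 0 at 83%.

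Gdf15, a secreted stress hormone, was noticed after its values had been seen, because it was called higher in the same 4 exposures as Trib3. It was well above background on 0 of 6 control arrays and 0 of 6 arrays at 83%, and on 4 x-ray arrays, 4 of the 5% field, 5 of the 15% field, and 6 of the 25% field, with 1 non-uniform x-ray spot left out. Its level was at least 2.74-fold higher than in the controls after x-rays (adjusted p = 0.00292), 5.68-fold at 5% (0.000324), 3.31-fold at 15% (0.00143), and 6.49-fold at 25% (0.000139), each taken against the mean, over the control arrays, of the lowest signal well above background. Against 83% neutron, it was at least 3.43-fold higher in the 25% group (adjusted p = 0.000293) and at least 1.45-fold higher after x-rays (0.00499).

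Aminoacyl-tRNA ligases, many of which are also under ATF4, were mostly not called. Of 20 listed, 19 passed the filter. With x-rays and with the 15% field 1 was called higher and 1 lower, with the 5% and the 25% field 2 and 1, and with 83% neutrons 1 and 6. For this list and those that follow, the shares of all tested probes were 8.11 to 13.9% called higher and 13.2 to 19.7% lower. The median change of the ligases lay between -0.76 and -0.16. Nars, the asparagine ligase, was higher in all 5 comparisons, by 0.99 at 83% (-0.83 with spike-in centring) and 1.82 to 2.09 in the others, and Vars, the valine ligase, was lower in all 5, by -1.64 to -1.18. Of 19 measured endoplasmic reticulum chaperones and related genes, 1 to 2 were called higher and 0 to 5 lower, and Sec61b, a subunit of the translocation channel, was higher in all 5 (0.84 to 1.70), with spike-in values of -0.07 for x-rays and -0.99 at 83%. Among 14 genes for EIF2, its exchange factor EIF2B, and related factors, Eif5 was called higher with x-rays (1.86), the 15% field (1.55), and 83% neutrons (1.58, or -0.25 with spike-in centring). Eif2b4 and Eif2b5, which encode subunits of the exchange factor, were called lower with x-rays (-1.12 and -1.03) and with 83% neutrons (-0.71 and -0.96), where 2 and 4 genes of the list were lower in all. With limma 0 of the 14 were called at 5% or 25%, where 7 and 6 had an unadjusted p below 0.05.

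Levels of the members were set beside those of the cell type markers. Over 36 arrays, as a description, the correlation with the mean of the 7 red cell markers was 0.94 for Asns, 0.91 for Eif2ak1, 0.91 for Ppp1r15a, 0.73 and 0.72 for the probes of Atf4, and 0.70 for Trib3. Taken as deviations from group means these were 0.87, 0.87, 0.89, 0.71, 0.73, and 0.67. With the same markers Eif2ak3, Eif2ak4, Eif2ak2, and Ddit3 gave -0.76, -0.80, -0.17, and 0.00 over 36 arrays. As deviations they gave -0.22, -0.44, -0.21, and 0.47. The red cell mean also moved with the median signal of the array (-0.66 over 36 arrays, and -0.85 as deviations), which the centring subtracts from every level. Arrays were also centred on the probes that every array detected well. Over 36 arrays, the red cell correlation was then 0.94 for Asns, 0.91 for Eif2ak1, 0.93 for Ppp1r15a, 0.79 and 0.80 for the probes of Atf4, and 0.72 for Trib3. That of the red cell mean with the array median stayed at -0.66. The red cell mean stood above the controls by 2.03 for x-rays, 1.88, 2.16, and 1.69 for the 5, 15, and 25% fields, and 1.73 for 83% neutrons, the last at -0.09 with spike-in centring. Its group means were 8.77 at 25% and 8.81 at 83%, and those of the B cell mean were 4.37 and 6.84. Trib3 differed between those groups by -1.97. With the B cell mean, Eif2ak1, Asns, Ppp1r15a, and Trib3 gave -0.84, -0.87, -0.55, and -0.88 over 36 arrays, and the Atf4 probes -0.45 and -0.63. As deviations from group means these were -0.36, -0.47, -0.33, -0.53, -0.33, and -0.45. For Eif2ak3 and Eif2ak4 the correlation was 0.83 and 0.76 with the mean of the 5 B cell markers over 36 arrays, and 0.26 and 0.39 as deviations from group means. As deviations, other lists gave higher values, namely 0.69 and 0.61 for 5 monocyte markers with Eif2ak3 and Eif2ak4, and 0.64 for 5 T cell and 0.63 for 5 NK cell markers with Eif2ak3, while T cell and NK cell markers gave 0.20 and 0.23 with Eif2ak4. The B cell mean fell by 4.04, 3.60, 3.84, and 3.74 in the groups exposed to 3 Gy and by 1.27 at 83%. The decrease of Eif2ak3 was also smallest at 83% with median centring, but not with spike-in centring, where it was -2.79 at 83% and -2.37 at 25%. The mean of 5 T cell markers differed from the controls by -1.17 to -0.41, and that of 9 neutrophil markers by 0.53 to 1.78. Of the neutrophil markers, Ngp, Ltf, and Camp were called higher in all 5 exposures, with mean differences of 4.15, 3.94, and 2.61. Csf3r was called lower in 3 (mean -0.79), and S100a8, S100a9, Retnlg, Mmp8, and Cxcr2 were called in none. The part of cell composition in the levels of the members was not tested.

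**Figure D5:**
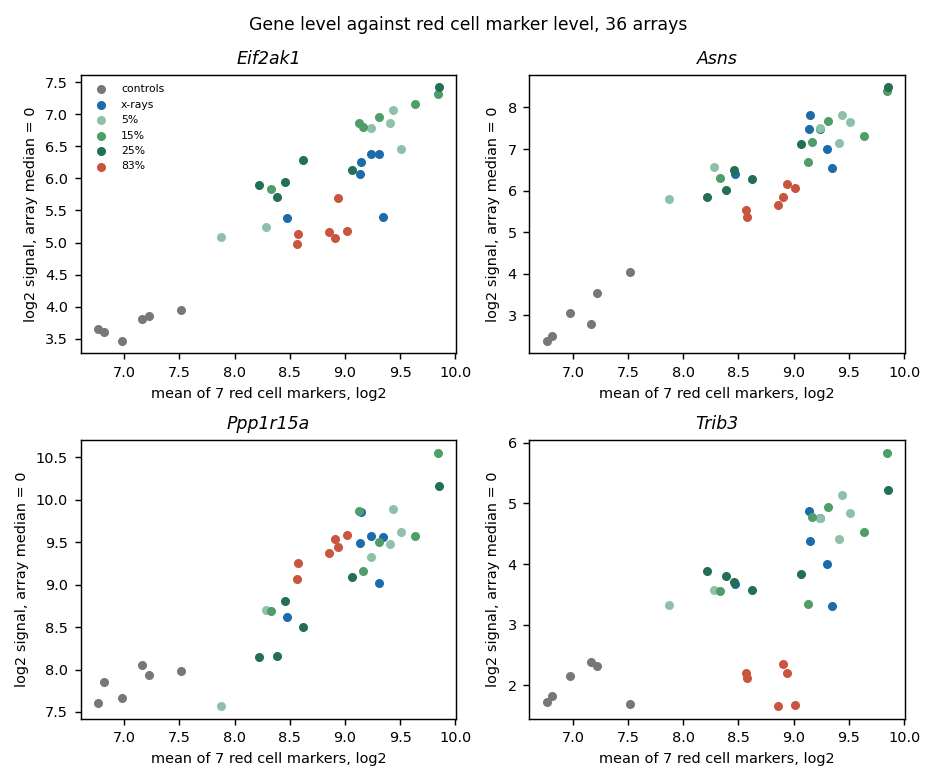
Level of Eif2ak1, Asns, Ppp1r15a, and Trib3 (log2 signal, array median at 0, vertical axes) against the mean level of 7 red cell markers (horizontal axes) on 36 arrays, coloured by group. The controls lie at 6.76 to 7.52 and the exposed mice at 7.87 to 9.85 on the horizontal axis, and the 83% mice, at 8.57 to 9.01, stand below the other exposed mice in the panel of Trib3.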

How the data were processed

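The authors deposited 1 scanner file per array, with intensity on a linear scale from Agilent Feature Extraction 12.0.2.2, which per the file headers was background-corrected and detrended within the array and not normalized between arrays. The authors also deposited a table of normalized and filtered log2 expression values, with 14243 probes, used here only as an alternative. It holds 8 of the 10 member probes, and Atf4 is not among them. No column of per-sample values was left without a sample (0).

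Intensities were log2-transformed, averaged per probe without non-uniform spots, and set relative to the median probe of their array (R 4.3.3; limma 3.58.1; version 1.17.8 of data.table). Tested probes had a uniform, significant signal on more than 75% of 36 arrays. The 10 comparisons were 5 exposures against controls, 4 against x-rays, and 83% neutron against the 25% mixed field. Each used limma on 12 arrays, and p was adjusted over all probes tested. The number of arrays limits the precision. The script was tested on simulated data. Promoters are from RefSeq (GRCm38.p6), and all 9 members matched by symbol. Promoter windows that overlapped on opposite strands were reverse complements in 1677 of 1677 cases. Python 3.11.15 with pandas 2.3.3, numpy 2.4.6, and matplotlib 3.10.9 made the figures.

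The members, gene lists, and tests were chosen with earlier results of these data known. Named were all member probes, the 3 genes most correlated with each kinase, and from each pathway list up to 4 genes called in 1 direction in all 5 exposures, or else the 3 called most often. For a gene with several probes in the lists, the brightest was used. Alternatives were other centrings (75th percentile, median of the probes that every array detected well, quantile, spike-in probes), normexp background correction with an offset of 50, stricter probe filters, 1 probe per gene, the deposited table, 1 model over 36 arrays, blocks for replicate number, slide, and scan session, the adjusted p alone, and array weights. Leaving out 3 single arrays and the arrays of the fourth scan session was added after the data had been seen.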

Additional observations from a re-analysis of the deposited data

Results flagged for a closer look

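Among 60 groups of 6 arrays (10 probes in 6 groups), 6 held an array whose gap to its nearest neighbour exceeded Dixon's critical value for its share of the range, which chance alone does in about 1 of 20 groups. 3 of these arrays were replicate 5 of the 25% mixed field, which was highest in Eif2ak1 (7.42), in the 5′ probe of Atf4 (4.42), and in Trib3 (5.23). In its group this array also had the lowest median log2 signal (3.60) and the fewest probes well above background (15782, others 18784 to 21058). For Eif2ak1, replicate 3 at 15% was the lowest of its group (5.83) and replicate 6 at 83% the highest (5.69). For Eif2ak3, replicate 4 at 15% was the highest (3.93). Between exposures, Asns at 83% differed from x-rays (-1.36), and Trib3 at 83% differed from x-rays (-2.12) and from the 25% mixed field (-1.97), each in a direct test of the difference.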

How the results depend on the processing

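Of 31 called differences, recomputed in 498 instances over the alternatives, 462 kept direction and call, 33 kept direction and lost the call, and 3 reversed. The 3 reversals were at 83% against controls under spike-in centring, which gave -0.34 for Eif2ak1, -0.29 for Ppp1r15a, and -0.93 for Atf4. The same centring lost 6 calls against controls, Asns at 83% (0.89), Ppp1r15a for x-rays (0.53) and at 15% (0.49), and Trib3 for x-rays (1.16), at 5% (1.02), and at 15% (1.26). Of the 33 lost calls, 23 came with the slide (13) or the scan session (10) as a block. At 5% against controls the member probes called fell from 5 to 0 with either block, and at 15% from 6 to 1 with the session and 0 with the slide; both rest there on 1 array of each group. The adjusted p alone and array weights each gave 8 calls at 5%. Against x-rays, 1 probe rather than 0 was called at 25% with 1 model over 36 arrays and with array weights, and at 83%, where 2 were called, 5 were with spike-in centring, 1 with 1 model over 36 arrays, and 5 with the adjusted p alone. Between 83% and 25%, where 1 was called, 2 were with the 75th percentile, the median of the probes that every array detected well, quantile normalization, a filter for such probes on the 12 arrays compared, array weights, and without replicate 5 of the 25% group, 3 with the adjusted p alone, 4 with normexp, and 5 with spike-in centring.

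The replicate block changed none of the 31 calls, and replicate numbers were not treated as pairs, as residuals correlated by 0.034 on average over 90 pairs of the same number (-0.73 to 0.72). The normexp fit left out 109 spots, at most 19 of 44397 on an array, that lay more than 50 below their local background and derailed it, a choice made after seeing the data. Scan session as a block could not be fitted for the 25% and 83% exposures against controls or x-rays, which shared none. The deposited table held no Atf4 probe. The 10 member probes were well above background on 35 or 36 of the 36 arrays.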
